A study of Mus musculus with 2 samples.

Results

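The genes described here encode the precursors of the best known appetite peptides of the arcuate nucleus and the lateral hypothalamus: Cartpt, Pomc, Agrp, Npy, Hcrt and Pmch. They were chosen by name, with earlier results of these data known, so their ranks below are a description only. Every probe set that the platform annotation of the Mouse Genome 430 2.0 array pairs with such a gene alone was taken. This gave 6 probe sets of 5 genes, out of 34945 probe sets paired with a single gene. Cartpt, Npy, Hcrt and Pmch had 1 probe set each and Pomc had 2. Agrp had no probe set paired with it alone in the annotation used and is not analysed here.

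RNA of the hypothalamus was compared between male mice lacking Crtc1, which encodes a coactivator of CREB, a transcription factor, and wild-type males. All were 12 weeks of age, went without food for 18 h and were then fed again for 6 h, so the fed-again state is the only one compared. RNA of 3 mice per genotype was mixed before labelling, and each mix was put on 1 Affymetrix array. There is thus 1 value per genotype and probe set, no difference has a replicate check, no p-value can be given and precision is limited by the number of arrays. The sources used here do not give the strain or the construction of the knockout allele. The series title ties Crtc1 to energy balance and fertility, and the peptide genes bear on the first of these.

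In the arcuate nucleus, one set of neurons makes POMC, which is cut into melanocortins that lower food intake, and many of these cells also make CART from Cartpt. A neighbouring set makes neuropeptide Y together with AgRP, and these peptides raise food intake. In the lateral hypothalamus, separate neurons make the hypocretins (orexins), which promote wakefulness and feeding, and melanin-concentrating hormone, the product of Pmch. CART is also made in many of the latter neurons. CREB binds the CRE motif in promoters, and CRTC proteins enter the nucleus and bind CREB when cAMP or calcium signals rise.

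The bases before the annotated start of each gene are shown because CREB acts through the CRE motif and because a single gene of the 5 holds it here. They come from RefSeq on assembly GRCm38.p6, which held all 5 genes with a probe set. Each line gives the 250 bases before the start, read along the gene. For Pomc, Npy, Hcrt and Pmch the start used is the upstream edge of the annotated locus. The start used for Cartpt, base 99900683, lies inside its locus, which spans 99898483 to 99910179 and is read on the minus strand. Its window is thus not placed like the others. Capitals mark the full CRE, TGACGTCA, and the TATA element, TATAA, the latter on the gene's own strand.
Cartpt, chr13:99900684-99900933, minus strand: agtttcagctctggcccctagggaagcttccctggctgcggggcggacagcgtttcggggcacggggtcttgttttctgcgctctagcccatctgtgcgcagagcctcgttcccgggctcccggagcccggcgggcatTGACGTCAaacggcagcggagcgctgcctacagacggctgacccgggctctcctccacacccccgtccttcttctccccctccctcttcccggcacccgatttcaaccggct
Pomc, chr12:3954695-3954944, plus strand: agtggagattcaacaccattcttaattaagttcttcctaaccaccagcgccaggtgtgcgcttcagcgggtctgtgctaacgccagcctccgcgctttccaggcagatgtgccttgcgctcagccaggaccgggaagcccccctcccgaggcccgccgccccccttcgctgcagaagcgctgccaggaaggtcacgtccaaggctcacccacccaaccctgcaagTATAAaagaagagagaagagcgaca
Npy, chr6:49822460-49822709, plus strand: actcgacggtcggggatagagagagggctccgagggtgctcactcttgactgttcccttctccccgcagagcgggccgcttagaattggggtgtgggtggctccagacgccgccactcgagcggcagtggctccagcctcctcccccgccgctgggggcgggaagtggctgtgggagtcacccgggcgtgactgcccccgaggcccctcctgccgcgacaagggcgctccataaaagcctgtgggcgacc
Hcrt, chr11:100762932-100763181, minus strand: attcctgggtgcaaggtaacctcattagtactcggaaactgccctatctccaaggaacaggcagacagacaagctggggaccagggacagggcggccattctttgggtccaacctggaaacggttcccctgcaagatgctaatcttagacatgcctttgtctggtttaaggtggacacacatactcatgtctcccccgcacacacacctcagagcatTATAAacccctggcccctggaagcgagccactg
Pmch, chr10:88090822-88091071, plus strand: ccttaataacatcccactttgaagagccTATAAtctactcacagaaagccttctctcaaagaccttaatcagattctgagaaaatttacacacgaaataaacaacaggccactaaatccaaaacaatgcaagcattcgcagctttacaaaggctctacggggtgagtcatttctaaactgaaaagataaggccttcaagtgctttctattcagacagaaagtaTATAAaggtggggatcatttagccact

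The Cartpt window held 1 full CRE, with its first base at position -112 from the start. The motif reads the same on both strands, and it holds the shorter core TGACG once on each strand. In the windows of Pomc, Npy, Hcrt and Pmch, searched on both strands from 250 bases before the start to 50 after it, neither TGACGTCA nor TGACG was found. Of 32841 promoter windows of this length in the RefSeq table, 588 (1.79%) held the full CRE and 20.8% held the core. TATAA, a motif added after the sequences were seen, lay at -25 in Pomc, at -33 in Hcrt and at -27 and -222 in Pmch. In Cartpt it began at -1 and so ran across the annotated start, and the Npy window held none. Of all windows, 17.5% held TATAA. A match of letters does not show that a factor binds there, and a missing match says nothing on sites outside these windows. Over the array, the 331 measured genes with a full CRE in such a window had a median log2 difference of -0.00, of which 6 (1.81%) were at least 1.5-fold lower in the knockout and 5 (1.51%) higher. Over all 11312 measured genes 1.44% were lower and 2.06% higher by this limit, and the median was 0.00.

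Values are the deposited linear signals in arbitrary units. Signals under the 30th percentile of their array, 20.5 for the knockout and 20.2 for the wild type, were raised to that floor before taking log2. Probe sets with a mean log2 signal of at least 5.71, the median over the array, were taken as measured, and all 6 peptide probe sets passed. Each difference is the log2 signal of the knockout pool minus that of the wild type. The array error beside a difference is the SD between measured probe sets of the same gene at like signal. It holds no spread between mice. The Crtc1 signal itself read 85.1 in the knockout and 631 in the wild type by its brightest probe set, and 31.5 and 209 by the next.

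Cartpt, whose peptide CART lowers food intake, differed most by its distance from the array error. Probe set 1422825_at read 402 in the knockout and 707 in the wild type, 1.76-fold lower in the knockout. The log2 difference was -0.82, which is 3.97 times the array error of 0.21 at this signal. By signal it ranked 7366 of 45037 probe sets on the knockout array and 4251 on the wild-type array. Its difference was the 121st lowest of 22519 measured probe sets. Among the 3832 measured probe sets whose mean log2 signal lay within 0.5 of its own, it was the 5th lowest. Both readings were far above the floor, 19.6 times in the knockout and 35.0 times in the wild type.

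Pomc, the precursor of the melanocortins and the other food-lowering gene here, had probe sets that disagreed. The brighter, 1433800_a_at, read 136 in the knockout and 174 in the wild type, with ranks of 15154 and 13230 by signal. It was 1.27-fold lower in the knockout, a log2 difference of -0.35 against an array error of 0.26. The dimmer, 1455858_x_at, read 67.2 and 43.2, with ranks of 20706 and 24224. It was 1.56-fold higher in the knockout, a log2 difference of 0.64 against an array error of 0.32. In Affymetrix naming, the suffix _a_at marks probes shared by transcripts of the same gene and _x_at marks probes that may also match other sequences. The dimmer probe set read 3.28 and 2.14 times the floor. The gap between the readings was 0.99 on the log2 scale. Where a gene had at least 2 measured probe sets, which was so for 5199 genes, 65 (1.25%) had a gap this large between their brightest pair. Among the 734 genes whose dimmer probe set was of like signal, within 0.5 on the log2 scale, the share was 4.50%. The mean of the Pomc readings was 0.14. The direction of Pomc between the pools thus depended on the probe set read.

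Npy, whose peptide drives feeding, was bright and differed little. Probe set 1419127_at read 1226 in the knockout and 1343 in the wild type, at ranks 2226 and 1978. The log2 difference of -0.13 was smaller than the array error of 0.16. Its partner in the same arcuate neurons, AgRP, has no value here.

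The lateral hypothalamic genes also read slightly lower in the knockout pool. Hcrt, the hypocretin precursor gene, read 817 and 883 in knockout and wild type by probe set 1420471_at, at ranks 3605 and 3316. Its log2 difference of -0.11 compares with an array error of 0.21. Pmch, the precursor gene of melanin-concentrating hormone, was the brightest of the 6 probe sets. Probe set 1429361_at read 3341 and 3498, at ranks 441 and 419, so it lay in the top 0.979% and 0.930% of each array. Its log2 difference of -0.07 compares with an array error of 0.16. Probe sets differ in how strongly they bind their transcripts, so these ranks do not order the transcripts by abundance.

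**Figure D1:**
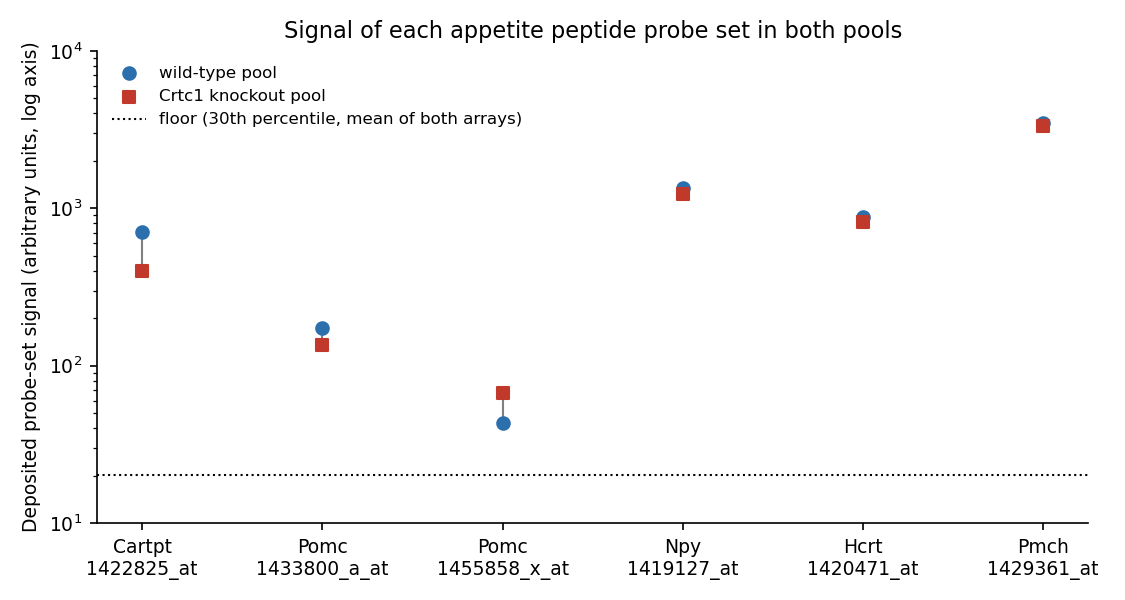
Deposited signal (arbitrary units, log axis) of each peptide probe set in the knockout pool (squares) and the wild-type pool (circles), 1 array each, with the floor as a dotted line. Cartpt read 402 against 707, the probe sets of Pomc moved in opposite directions, and the points of Npy, Hcrt and Pmch nearly coincide.

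Of the 6 probe sets, 5 read lower and 1 higher in the knockout pool, and their median log2 difference was -0.12 against 0.01 over all measured probe sets. Among the lower ones, Npy, Hcrt and Pmch lay within their array errors. Of all measured probe sets, 25%, 28% and 36% were at least as low as these. At least 1.5-fold lower was 1 of 6, Cartpt, beside 1.9% of all measured probe sets. At least 1.5-fold higher was 1 of 6, the dimmer probe set of Pomc, beside 2.9% of all measured probe sets. Its wild-type log2 signal of 5.43 lay under the filter of 5.71. With a mean of 5.75, it thus counted as measured only through its knockout reading of 6.07. In either direction, 4.79% of all measured probe sets (1079) passed 1.5-fold, of which 39.6% were lower with the deposited scaling and 55.2% with median centring. The Pomc count was lost under each other scaling, where the difference was 0.58, just under the limit of 1.5-fold.

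**Figure D2:**
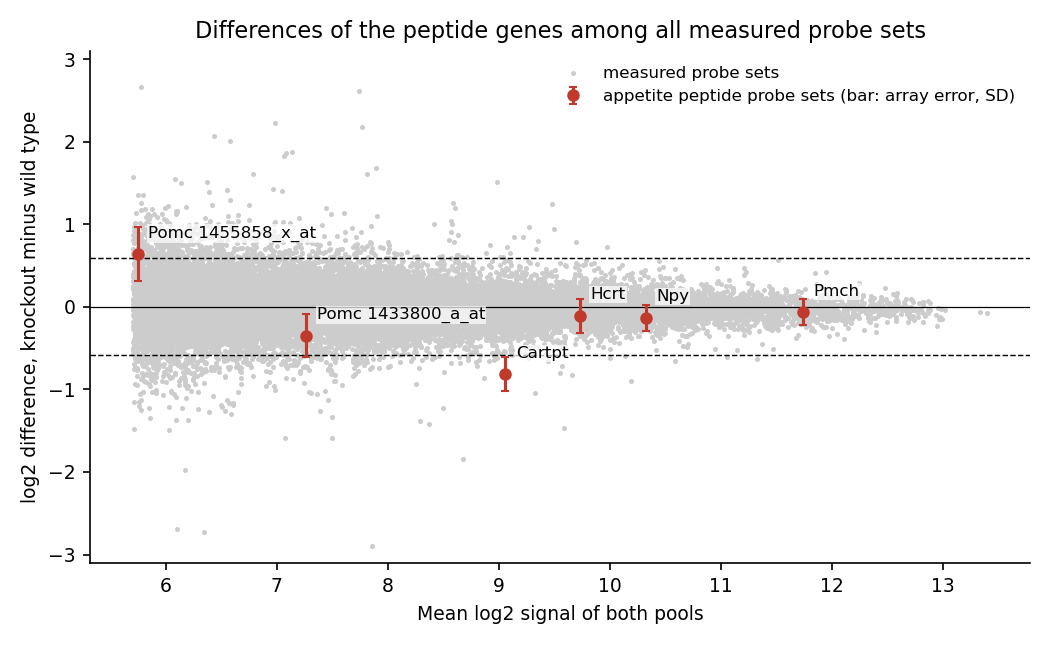
Log2 difference, knockout minus wild type, against mean log2 signal for all 22519 measured probe sets (grey) and the 6 peptide probe sets (red, bars are the array error as SD), with dashed lines at 1.5-fold. Cartpt lies at -0.82 at the lower edge of the cloud, while Npy, Hcrt and Pmch lie within their array error of 0.

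Setting the genes against each other cancels any single scaling factor per array. The log2 difference of Cartpt was lower than that of Npy by 0.68, a 1.61-fold change of their ratio, with a combined array error of 0.26. Against Hcrt it was lower by 0.70 and against Pmch by 0.75, with combined array errors of 0.29 and 0.26. Against the brighter probe set of Pomc the gap was 0.47, with a combined array error of 0.33. Against the dimmer Pomc probe set it was 1.45 and against the mean of both 0.96, so the place of Pomc among these gaps depended on the probe set. The ratio of Cartpt to each of the other genes was lower in the knockout pool by every probe set. Such a ratio shows unequal change and does not show which gene stayed level. In RNA of a whole tissue, fewer cells of a type and less RNA per cell cannot be told apart.

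The genes with the most similar readings were found by the distance in mean log2 signal and log2 difference over the 2 arrays. For Cartpt they were Gpx3, which encodes a secreted glutathione peroxidase, at a distance of 0.03, Fbll1 at 0.20 and Serpina3n, a serine protease inhibitor gene, at 0.20. Gpx3 read 395 in the knockout and 689 in the wild type, Fbll1 396 and 621, and Serpina3n 345 and 629. For the brighter probe set of Pomc they were Nop14, Arhgap27 and Mccc1, for Npy Dstn, Lrpap1 and Nfix, for Hcrt Zhx1, Hdac11 and Clcn6, and for Pmch Pabpn1, Sdha and Ppp2r1a. Over 2 arrays such likeness is a description of a level and a difference only.

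The genes that make, sense and steer these peptides passed 1.5-fold at a share near that of all measured genes. Of 62 genes on 6 lists, 58 had a probe set and 42 were measured. Of these 42, 1 was at least 1.5-fold lower and 1 at least 1.5-fold higher, together 4.76%. Over all measured genes 1.44% were lower and 2.06% higher by this limit, together 3.5%, and the median of the 42 was -0.02. By sign, 25 read lower and 17 higher.

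Of the receptors, 4 of the 8 with a probe set were measured, with 3 lower and 1 higher and a median of -0.09. With the probe sets of a gene averaged, the receptors gave 2 lower and 2 higher and a median of 0.12. Npy1r, a receptor for neuropeptide Y, read 157 in the knockout and 97.0 in the wild type, 1.62-fold higher, a log2 difference of 0.70 against an array error of 0.32. Npy1r lies on chromosome 8 at bases 66697149 to 66706800, and Crtc1 on the same chromosome at 70382352 to 70439702. The 5 peptide genes with values lie on chromosomes 6, 10, 11, 12 and 13. The part of the Npy1r position in the result was not tested. Mchr1, the receptor of melanin-concentrating hormone, differed by -0.22, and Npy5r by -0.15 with a second probe set of the opposite sign.

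All 8 prohormone processing genes with a probe set were measured. Of these, 6 read lower and 2 higher, and the median was -0.09, with Cpe turning from lower to higher under quantile and loess scaling. Prcp encodes a peptidase that inactivates the melanocortin alpha-MSH. It read 44.9 in the knockout and 80.7 in the wild type, 1.80-fold lower, a log2 difference of -0.85 against an array error of 0.32. The knockout reading lay under the median of its array, 54.4, so Prcp counted as measured only through the wild-type pool. With a floor at the 50th percentile it no longer passed 1.5-fold. Pcsk1n, which encodes an inhibitor of the prohormone convertase PC1, read 3851 and 5059, a difference of -0.39 against an array error of 0.16. Furin, a general convertase gene, differed by 0.32, within its array error of 0.32. Pcsk1, the convertase gene itself, read 134 and 144, a difference of -0.10.

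Transcription factors of these neurons had a median of 0.05 over 5 measured genes, with Foxo1 at 0.25, Lhx9 at -0.14 and Isl1 at 0.06. Foxo1 and Lhx9 had probe sets of opposite sign, and Isl1 turned lower with median centring, where the median of the list was -0.01. Foxo1 carries the insulin signal in arcuate neurons, Lhx9 marks hypocretin neurons and Isl1 marks arcuate neurons. All 7 measured genes of leptin, insulin and ghrelin sensing read lower by their brightest probe sets, also under each other scaling. The amounts were small, with a median of -0.10 (0.00 over all measured genes) and a range of -0.20 to -0.02. Ptpn1 and Ptpn2 among them had probe sets of opposite sign. The receptor genes Lepr and Ghsr, and Socs3, were too dim to be measured. Without the filter 7 genes of the list read lower and 3 higher. The insulin receptor gene Insr differed by -0.20, the kinase gene Jak2 by -0.17 and the adaptor gene Irs2 by -0.10, each within its array error. With median centring the median of all measured genes was itself -0.06.

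Transmitter and partner genes had a median of 0.10 over 8 genes, 5 higher and 3 lower. With averaged probe sets this turned to 3 higher and 5 lower and a median of -0.03. Nptx2, a pentraxin gene active in hypocretin neurons, read 501 in the knockout and 351 in the wild type, a difference of 0.51 against an array error of 0.23. Pdyn, which encodes dynorphin and is made in the same neurons, differed by -0.28 and Nptx1 by 0.25, the latter with probe sets of opposite sign. Other feeding peptides had a median of 0.09 over 10 measured genes, 6 higher and 4 lower (5 and 5 with median centring or averaged probe sets), and none passed 1.5-fold. The galanin gene Gal read 210 and 297, a difference of -0.50 against an array error of 0.26. The neurotensin gene Nts read 312 and 223, a difference of 0.48 against 0.23, and Nucb2 differed by 0.27.

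**Figure D3:**
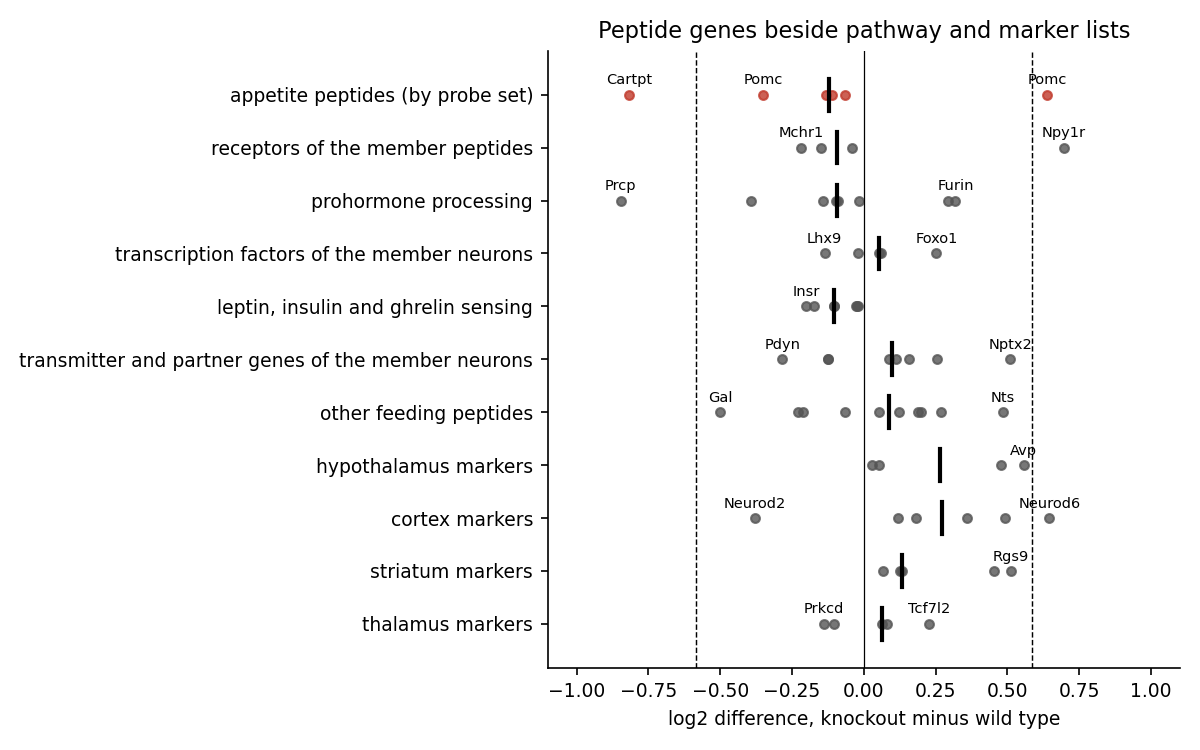
Log2 difference, knockout minus wild type, of the 6 peptide probe sets (red) and of the measured genes of each list (grey, brightest probe set), with the median as a black bar and dashed lines at 1.5-fold. Names mark the outermost genes of each list, and Cartpt, Prcp, Npy1r, Neurod6 and the dimmer probe set of Pomc lie outside the dashed lines.

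Markers of other tissue were read because Pomc is abundant in the pituitary, and because Cartpt and Npy are also made in cortex and striatum. None of the 10 pituitary markers with a probe set was measured. Their signals summed to 133 for the knockout and 192 for the wild type, and the brightest, Lhb, read 35.3 and 50.4. Gh read 6.80 and 23.7, Prl 1.20 and 3.50 and Tbx19, the factor of pituitary POMC cells, 25.9 and 24.8, all near or below the floor. These 3 were named for their role. Cortex markers read higher in the knockout pool in 5 of 6 genes, with a median of 0.27 and summed signals of 2047 and 1803. Neurod6 was 1.57-fold higher, Rorb differed by 0.49 and Neurod2, whose probe sets disagreed in sign, by -0.38. Of these cortex genes, Tbr1 and Emx1 lay within their array errors and the others beyond. Striatum markers read higher in 5 of 5, with a median of 0.13, summed signals of 1837 and 1586 and Rgs9 at 0.51. Drd1, Drd2 and Ppp1r1b lay within their array errors, and Rgs9 and Gpr6 beyond. Thalamus markers had a median of 0.06 over 5 genes, which turned to -0.06 with averaged probe sets, and summed signals of 6465 and 6492. Of these, Tcf7l2 differed by 0.23, within its array error of 0.23, but by 0.53 as the mean of its 4 measured probe sets, none of opposite sign. Prkcd differed by -0.14 and Gbx2 by -0.10, each within its array error. Of the hypothalamus markers 4 of 10 were measured, all higher with the deposited scaling but 2 of 4 with median centring and 3 of 4 with the others. The median of 0.27 joined the vasopressin gene Avp at 0.56 and the oxytocin gene Oxt at 0.48 with Otp at 0.05 and Six3 at 0.03. Otp and Six3 lay within their array error of 0.26. Summed over all 10, the markers read 3210 and 2350, of which Avp read 1690 and 1149 and Oxt 969 and 695. The other regional factor genes were too dim to be measured. They were Nkx2-1 (36.0 and 19.6), Sim1 (36.4 and 16.1), Nr5a1 (8.80 and 51.5), Rax (1.20 and 8.80), Fezf1 (61.2 and 33.3) and Six6. Six6 read 23.7 in the knockout and lay under the floor in the wild type. Without the filter, 9 of the 10 hypothalamus markers read higher and 1, Nr5a1, lower. Rax counted as higher through the floors alone, since both its readings lay under them. No marker on these lists was listed at 0. The part of the cortex, striatum and hypothalamus marker shifts in the Cartpt and Npy values was not tested.

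**Figure D4:**
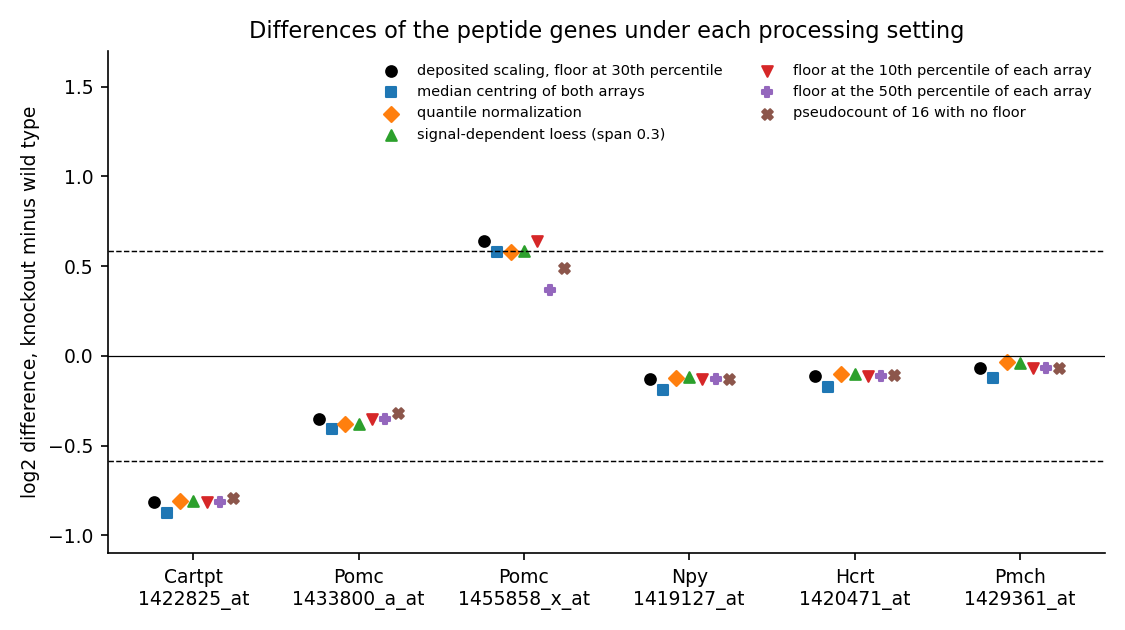
Log2 difference, knockout minus wild type, of each peptide probe set under the deposited scaling and 6 other settings, with dashed lines at 1.5-fold. Cartpt stays between -0.88 and -0.79, while the dimmer probe set of Pomc falls from 0.64 to as low as 0.36.

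Across the 7 settings of scaling and floor, Cartpt differed by -0.88 to -0.79 and stayed past 1.5-fold in each. The brighter probe set of Pomc ranged from -0.41 to -0.32, Npy from -0.19 to -0.12, Hcrt from -0.17 to -0.10 and Pmch from -0.13 to -0.04. The gap of Cartpt to Npy ranged from -0.69 to -0.66 and that to Pmch from -0.77 to -0.73.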

How the data were processed

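The authors deposited linear signal intensities, 1 per probe set, for 2 arrays. Their summary algorithm and its version are not stated in the labels. The mean without the lowest and highest 2% was the same on both arrays, so the deposited intensities had been scaled by 1 factor each. Their medians, 54.4 in knockout and 52.2 in wild type, were 0.06 apart in log2, less than the limit of 0.1, and the scaling was kept. Of 45101 probe sets, 64 controls were left out. Of the rest, 34945 had 1 gene in GEO's platform annotation, 932 several and 9160 none; symbols were updated through the RefSeq table of GRCm38.p6. A gene took its brightest measured probe set. The array error was 0.32 below a mean log2 signal of 7, and 0.26, 0.23, 0.21 and 0.16 in the bins from 7, 8, 9 and 10.

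Members and lists were chosen with earlier results of these data known. Named genes were the members, Crtc1, for each list up to 3 measured genes with the largest difference and any past 1.5-fold, and the 3 genes nearest to each member; further ones are named for their role. Computations used Python 3.11.15, numpy 2.4.6, pandas 2.3.3 and statsmodels 0.14.6, tested on simulated data. The precision within each pool is unknown beyond the array error.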

Additional observations from a re-analysis of the deposited data

How the results depend on the processing

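No paired analysis was possible because each genotype is 1 pooled array, and for the same reason no replicate could be left out. Scaling was varied by centring on the median, by loess over the signal (span 0.3) and by quantiles, and the floor was set at the 50th or the 10th percentile or replaced by a pseudocount of 16. For the lists there were also no filter, a filter at the 70th percentile, averaged probe sets and leaving out _s_at and _x_at probe sets. All 36 alternative values of the peptide probe sets and all 24 of the differences between peptide genes (Pomc by its brighter probe set) moved by less than the array error. Part of these values could not move and are no check. Median centring cancels in a difference between genes, and a floor below both readings leaves them unchanged. The 1 peptide probe set at least 1.5-fold higher became 0 with each of the 3 scalings, the floor at the 50th percentile, the pseudocount and the filter at the 70th percentile, in the last because it was no longer measured. Of 320 alternative values of the lists, 304 stayed within 1.5 times the count or within 0.16 of the median. Many of these counts were 0 and stayed 0. The tolerance of 0.16 is larger than every list median except those of the hypothalamus and cortex markers, so it does not bear on the direction of the rest. Within that tolerance 6 medians turned sign: transcription factors to -0.01 with median centring and -0.02 without _s_at and _x_at probe sets, other feeding peptides to -0.07 with the filter at the 70th percentile and -0.01 with averaged probe sets, and with the latter transmitter genes to -0.03 and thalamus markers to -0.06. Without the filter, counts at least 1.5-fold lower became 1 for the receptors, other feeding peptides, pituitary and hypothalamus markers, and counts at least 1.5-fold higher became 2 for the receptors, 2 for the transcription factors, 1 for the sensing genes and 3 for the hypothalamus markers, since dim genes then entered. With the filter at the 70th percentile, the receptors (higher), processing genes (lower) and cortex markers (higher) went to 0, and the hypothalamus median to 0.48. The processing count was also 0 with the floor at the 50th percentile and the cortex count 0 with the pseudocount. Averaged probe sets gave medians of 0.12 for the receptors and 0.31 for the striatum markers.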

Other observations

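Several genes of the same circuits were too dim to count as measured and enter no comparison. The hypocretin receptor gene Hcrtr2 read 11.7 in the knockout pool, under the floor, and 42.5 in the wild type, and Hcrtr1 read 55.7 and 45.4. Mc3r, a melanocortin receptor gene, read 58.8 and 28.1. Ghrh, which encodes growth hormone-releasing hormone of arcuate neurons, read 16.7, under the floor, and 43.4. Socs3, a brake on leptin signalling, read 52.7 and 30.7. Tbx3, a factor of arcuate neurons, read 53.4 and 31.6. These genes were chosen after their values were seen.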
